A study of Homo sapiens with 8 samples.

Results

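The epithelial-mesenchymal transition (EMT) genes CDH1, CDH3, VIM, FN1, SNAI1, SNAI2, ZEB1, ZEB2, TWIST1 and OVOL1 were followed in Kyse510 cells, an established human esophageal squamous cell carcinoma (ESCC) line. The 10 genes were chosen by name, among 31582 genes measured in the inhibitor experiment and 28942 in the knockdown experiment. Of them 9 could be read in the inhibitor libraries and 8 in the knockdown libraries, since TWIST1 was not analysed here and ZEB1 was not analysed here in the knockdown libraries. The 6 genes CDH1, CDH3, FN1, SNAI1, SNAI2 and OVOL1 reached 1 FPKM in at least 1 library, and VIM, ZEB1 and ZEB2 stayed below 1 FPKM in every library. FPKM is the number of fragments on a gene, scaled by the length of the gene and by the size of the library.

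EMT is the programme by which epithelial cells, which adhere to each other through E-cadherin and tight junctions, take on a spindle shape, a fibronectin-rich matrix and the ability to migrate. It is driven by transcription factors of the SNAI, ZEB and TWIST families, which bind E-box sequences in epithelial genes such as CDH1 and recruit chromatin enzymes to silence them. LSD1 (encoded by KDM1A) and G9a (encoded by EHMT2), the histone demethylase and the histone methyltransferase targeted in this study, are both known partners of SNAI1. The miR-200 family, miR-205 and the OVOL and GRHL factors hold the epithelial state, in large part by repressing the ZEB genes.

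The study compared 8 libraries, with 1 library per condition. Kyse510 cells received vehicle, 7 µM SP2509 (an LSD1 inhibitor), 7 µM UNC0642 (a G9a inhibitor) or both inhibitors for 2 days, and no separate dose is stated for the combination. In the knockdown experiment, stable puromycin-selected Kyse510 lines carrying a doxycycline (Dox)-inducible shLSD1 or shG9a hairpin were compared without and with Dox for 2 days. Each induced library was set against the same line without Dox, so the effects of Dox and of the hairpin cannot be told apart, and each inhibitor library was set against the 1 vehicle library, which the 3 inhibitor comparisons share. No difference has a replicate check, and no value measures the spread between cultures.

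Library totals lay between 15662035 and 17889466 reads, estimated from the steps of the FPKM values. All 10 squamous epithelial markers were measured in every library, with 8 to 10 of them at 1 FPKM or more and a summed level of 902 to 5205 FPKM. KRT17 made up 3716 FPKM of the highest sum, that with SP2509. The squamous markers moved both ways there, as TP63 had 79.1 FPKM with vehicle and 127 with SP2509, and SOX2 18.3 and 0.313. The fibroblast markers summed to 3.23 to 6.97 FPKM, most of it COL1A1, and THY1 did not exceed 0.0108 FPKM where it was measured. The summed fibroblast level was 3.41 FPKM with vehicle and 6.97 FPKM with SP2509. Endothelial markers summed to 3.56 to 14.5 FPKM, of which CDH5 made up most, and leukocyte markers to 0.0365 to 2.78 FPKM. The part of these markers in the results was not tested. KDM1A had 26.0 FPKM without and 6.29 FPKM with Dox in the shLSD1 line, and EHMT2 had 7.85 FPKM without and 4.76 FPKM with Dox in the shG9a line.

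A gene was called changed when (FPKM + 1) differed by at least 1.3-fold, 1 or both libraries had at least 1 FPKM, and the estimated reads differed in an exact binomial test (two-sided, unadjusted p below 0.05). Such a test sets 1 library against 1 library, not condition against condition, and all intervals are 95% intervals for counting error only. Levels are in FPKM and log2 differences are on the (FPKM + 1) scale, which understates the change of lowly expressed genes. Folds are plain FPKM ratios.

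With SP2509, all 6 of the 6 EMT genes tested were upregulated and none was downregulated, against 18.2% of 13342 genes upregulated and 37.5% downregulated. With UNC0642, 3 of 6 were upregulated (SNAI1, FN1 and SNAI2) and 0 downregulated, against 15.8% and 14.0% of 13244 genes. With both inhibitors, 4 of 6 were upregulated and 1 (CDH3) was downregulated, against 29.0% and 29.1% of 13907 genes. In the shLSD1 line Dox was accompanied by 0 upregulated and 1 downregulated gene of 6 (SNAI2), against 22.7% and 10.4% of 12970 genes. In the shG9a line 0 of 5 tested genes were upregulated and 3 (SNAI2, OVOL1 and FN1) downregulated, against 30.0% and 15.8% of 13080 genes. Epithelial and mesenchymal genes of the set thus moved together with SP2509, and the median log2 difference of the tested genes was 1.10 there, 0.35 with UNC0642, 1.03 with both inhibitors, 0.06 in the shLSD1 line and -0.48 in the shG9a line. Over all tested genes these medians were -0.21, -0.01, -0.02, 0.13 and 0.18. SNAI1 stood below 1 FPKM with vehicle and entered the 3 inhibitor counts through the treated libraries alone, where it could only count as an increase, and the same filter left out its lower value in the shG9a line. With 1 FPKM required in both libraries, a filter added after the values were seen, SNAI1 dropped out and 5 of 5 genes rose with SP2509, 2 of 5 with UNC0642 and 3 of 5 with both, while the numbers of decreases were as above. The median with UNC0642 was then 0.07. Under that filter 17.6%, 14.1%, 26.4%, 21.7% and 29.2% of all genes were upregulated and 34.4%, 12.9%, 28.6%, 9.66% and 14.7% downregulated, in the same order of comparisons.

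**Figure D1:**
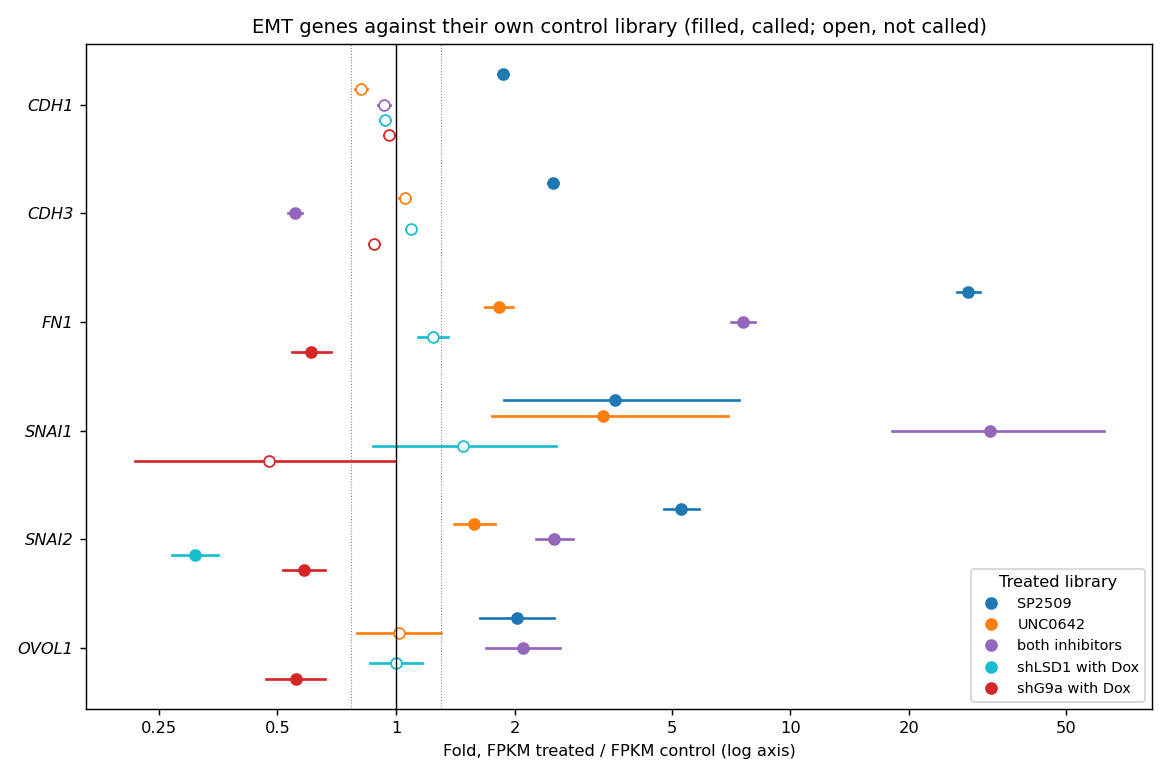
Fold of each of the 6 EMT genes above 1 FPKM (treated FPKM over control FPKM, log axis) in the 5 comparisons, with the exact binomial 95% interval as a line, filled circles for called genes, and dotted lines at a fold of 1.3 in either direction. SNAI2 lies right of 1 in the 3 inhibitor libraries and left of 1 in both Dox libraries, and FN1 reaches 28.2-fold with SP2509.

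The cadherins were the most abundant of the set. CDH1 (ENSG00000039068; GRCh38, chromosome 16, 68737225 to 68835548, plus strand) encodes E-cadherin, the adhesion molecule of epithelial adherens junctions. It stood at 65.2 FPKM in the vehicle library, 121.7 after SP2509, 53.2 after UNC0642 and 60.8 after both inhibitors. Only the SP2509 library stood above vehicle, and CDH1 rose there 1.87-fold (95% interval, 1.81 to 1.92). The ratio was 0.816 (0.788 to 0.846) with UNC0642 and 0.933 (0.901 to 0.966) with both inhibitors, neither of which reached the fold threshold. In the knockdown libraries CDH1 had 84.0 FPKM without and 78.7 with Dox in the shLSD1 line, and 81.8 without and 78.7 with Dox in the shG9a line. The 4 values lie within a narrow range, and neither comparison was called (log2 differences of -0.09 and -0.05).

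CDH3 (ENSG00000062038) lies next to CDH1 on the same strand of chromosome 16, from 68636189 to 68722616, and encodes P-cadherin, the cadherin of basal squamous cells. It stood at 67.0 FPKM in the vehicle library, 167.3 after SP2509, 70.4 after UNC0642 and 37.1 after both inhibitors. CDH3 therefore stood highest with SP2509 and lowest with the combination. It rose 2.50-fold (2.43 to 2.57) with SP2509 and was 1.80-fold lower (1.73 to 1.88) than vehicle with both inhibitors (exact binomial p = 9.01e-194), whereas with UNC0642 the ratio was 1.05 (1.02 to 1.09). With vehicle the intervals of the 2 cadherins overlapped (63.6 to 66.8 FPKM for CDH1 and 65.4 to 68.6 FPKM for CDH3), so their order there could not be told. CDH3 had 106.6 FPKM without and 116.1 with Dox in the shLSD1 line, and 99.4 without and 87.5 with Dox in the shG9a line, where the log2 differences of 0.12 and -0.18 were not called.

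FN1 (ENSG00000115414; chromosome 2, 215360440 to 215436172, minus strand) encodes fibronectin, a matrix glycoprotein widely used as a mesenchymal marker. It had 3.33 FPKM (902 reads) in the vehicle library, 93.9 FPKM (28955 reads) after SP2509, 6.07 FPKM (1881 reads) after UNC0642 and 25.2 FPKM (7371 reads) after both inhibitors. The SP2509 library was the highest of the 8, and its rise of 28.2-fold (26.4 to 30.2) was, at a log2 difference of 4.46, the 6th largest increase among the genes tested. FN1 also rose 1.83-fold (1.69 to 1.98, exact p = 9.48e-53) with UNC0642 and 7.58-fold (7.07 to 8.13) with both inhibitors.

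In the shLSD1 line FN1 had 2.99 FPKM without and 3.71 with Dox, and the ratio of 1.24 (1.14 to 1.35) was below the fold threshold. In the shG9a line it had 2.73 FPKM without and 1.66 with Dox, and was 1.64-fold lower (1.46 to 1.84, exact p = 3.05e-18). FN1 thus remained between 1.66 and 3.71 FPKM in the 4 knockdown libraries, close to the vehicle library. The 2 tables may have been normalized separately and are set side by side only as levels.

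**Figure D2:**
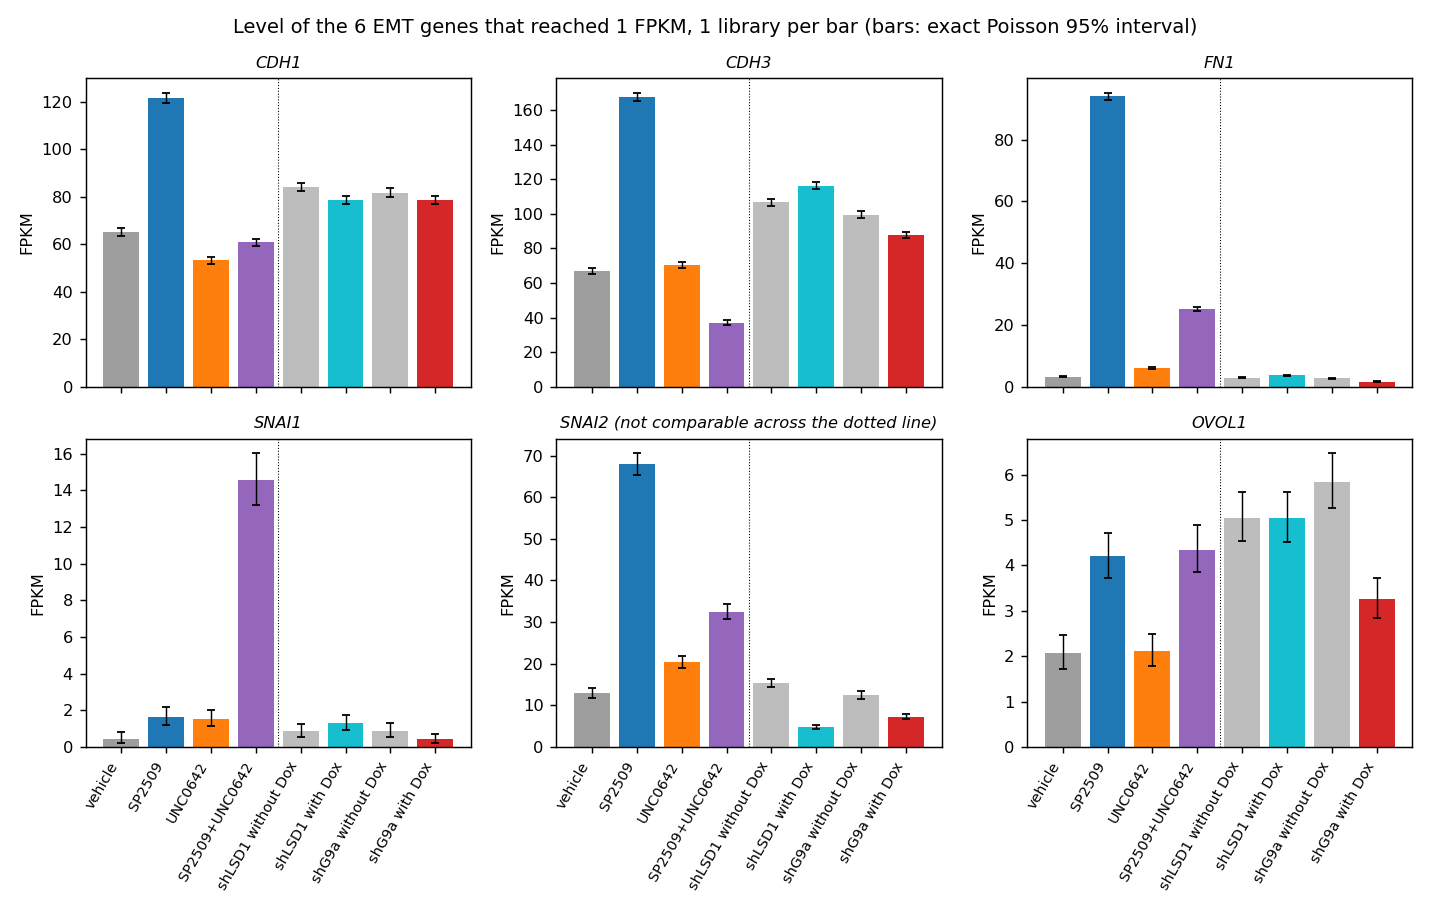
FPKM of the 6 EMT genes above 1 FPKM in each of the 8 libraries, 1 bar per library with the exact Poisson 95% interval, and a dotted line between the inhibitor and the knockdown libraries. CDH1, CDH3, FN1 and SNAI2 are highest with SP2509 among the inhibitor libraries, and SNAI1 is highest with both inhibitors, at 14.5 FPKM.

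Among the transcription factors, SNAI1 (Snail; ENSG00000124216; chromosome 20, 49982999 to 49988886, plus strand) is a zinc finger repressor of CDH1. It had 0.454 FPKM (12 reads) in the vehicle library, 1.63 FPKM (49 reads) after SP2509, 1.53 FPKM (46 reads) after UNC0642 and 14.5 FPKM (414 reads) after both inhibitors. Each single inhibitor thus gave a low level on few reads, and the combination stood far above both. SNAI1 rose 3.59-fold (1.88 to 7.42, exact p = 1.48e-05) with SP2509, 3.36-fold (1.75 to 6.96, exact p = 5.61e-05) with UNC0642, and 32.0-fold (18.1 to 62.5, exact p = 1.47e-99) with both. The last of these was the 58th largest increase of that comparison on the (FPKM + 1) scale.

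SNAI1 had 0.869 FPKM (26 reads) without and 1.29 FPKM (38 reads) with Dox in the shLSD1 line, a ratio of 1.48 whose interval of 0.877 to 2.54 includes 1 (exact p = 0.134). In the shG9a line it stayed under 1 FPKM, with 24 reads without and 12 reads with Dox (exact p = 0.0440), and was left out of the calls. At 12 to 38 reads per library, a change of less than about the width of these intervals was not detectable in the knockdown lines.

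SNAI2 (Slug; ENSG00000019549; chromosome 8) belongs to the same repressor family and is expressed in basal squamous cells. It stood at 12.9 FPKM in the vehicle library, 67.9 after SP2509, 20.3 after UNC0642 and 32.4 after both inhibitors. All 3 treated libraries stood above vehicle, and SNAI2 rose 5.28-fold (4.78 to 5.85) with SP2509, 1.58-fold (1.40 to 1.78, exact p = 4.41e-15) with UNC0642 and 2.52-fold (2.26 to 2.82, exact p = 1.19e-69) with both.

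In the knockdown lines SNAI2 was lower with Dox in both cases. It had 15.4 FPKM (926 reads) without and 4.77 FPKM (283 reads) with Dox in the shLSD1 line, where it was 3.23-fold lower (2.82 to 3.70, exact p = 3.00e-78) and ranked 161st among decreases. In the shG9a line it had 12.4 FPKM (698 reads) without and 7.27 FPKM (427 reads) with Dox, and was 1.71-fold lower (1.52 to 1.94, exact p = 6.88e-19). SNAI2 was the only one of the 6 genes called in all 5 comparisons, with 3 increases and 2 decreases. The length used for it was 2204 bases in the inhibitor table and 3392 bases in the knockdown table, so its FPKM cannot be compared between the tables. Reads on SNAI2 were 444 of 15662035 in the vehicle library, 926 of 17754601 in the uninduced shLSD1 line and 698 of 16540175 in the uninduced shG9a line.

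OVOL1 (ENSG00000172818; chromosome 11, 65787022 to 65797219, plus strand) is an epithelial zinc finger factor that opposes EMT. It stood at 2.07 FPKM in the vehicle library, 4.20 after SP2509, 2.11 after UNC0642 and 4.34 after both inhibitors. The 2 libraries with SP2509 stood apart from the 2 without it, and the intervals of the 2 pairs did not overlap. OVOL1 rose 2.03-fold (1.64 to 2.52, exact p = 9.32e-12) with SP2509 and 2.09-fold (1.69 to 2.61, exact p = 1.13e-12) with both inhibitors, and with UNC0642 the ratio was 1.02 (exact p = 0.903). It had 5.05 FPKM both without and with Dox in the shLSD1 line (345 and 340 reads), and fell from 5.84 to 3.26 FPKM upon shG9a induction, which is 1.79-fold lower (1.51 to 2.13, exact p = 3.23e-12).

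The ZEB factors, the other main repressors of CDH1, and vimentin were at or near the detection limit. ZEB1 (ENSG00000148516; chromosome 10, 31318495 to 31529814, plus strand) had 0 reads in the vehicle library, 0 after SP2509, 4 after UNC0642 and 25 after both inhibitors. At the limit of 3 reads, a count of 0 in the vehicle library allows up to 0.0221 FPKM, and the exact interval reaches 0.0272 FPKM. The level with both inhibitors was 0.171 FPKM (exact p = 8.62e-08), which is at least 7.73-fold higher than the limit of 3 reads, and the exact interval of the fold, which also holds the error of the 25 reads, starts at 5.84. ZEB2 (ENSG00000169554; chromosome 2, 144364364 to 144524583, minus strand) had 8 reads in the vehicle library, 29 after SP2509, 37 after UNC0642 and 64 after both, with exact p = 0.00253, 6.99e-05 and 4.06e-11. Its highest level was 0.152 FPKM. In both knockdown lines ZEB2 had fewer reads with Dox, with 36 and 17 reads in the shLSD1 line (exact p = 0.0128) and 32 and 15 reads in the shG9a line (exact p = 0.00857).

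VIM (ENSG00000026025; chromosome 10, 17228259 to 17237593, plus strand) encodes vimentin, the intermediate filament of mesenchymal cells. It had 0 reads in the vehicle library, 16 after SP2509, 5 after UNC0642 and 7 after both inhibitors, which is at most 0.174 FPKM. With SP2509 it was at least 4.69-fold higher than the limit of 3 reads, and the exact interval of the fold starts at 3.39 (exact p = 4.65e-05). The same values with both inhibitors were 2.16 and 1.34 (exact p = 0.0161), while the 5 reads with UNC0642 gave exact p = 0.0653. In the knockdown libraries it had 3 and 0 reads in the shLSD1 line and 0 and 1 in the shG9a line, all at or under that limit. None of these 3 genes reached the 1 FPKM needed for a call, so they enter no count above.

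**Figure D3:**
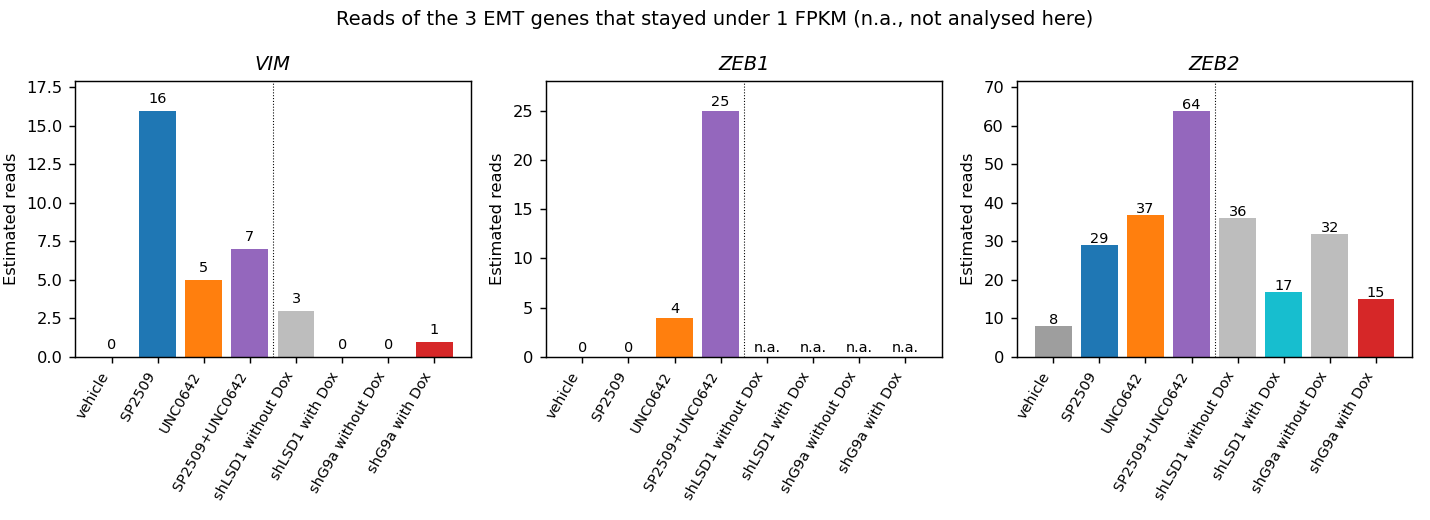
Estimated reads of VIM, ZEB1 and ZEB2 in each library, 1 bar per library with its count above it, and n.a. where a gene was not analysed here. ZEB1 and ZEB2 are highest with both inhibitors, at 25 and 64 reads, and VIM is highest with SP2509, at 16 reads.

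The combination was also set against each inhibitor alone, a comparison added after the values above had been seen. Compared to SP2509 alone, the combination had lower CDH3 (ratio 0.222, interval 0.214 to 0.230), FN1 (0.269, 0.262 to 0.275), SNAI2 (0.478, 0.446 to 0.511) and CDH1 (interval 0.485 to 0.515). SNAI1 went the other way and was 8.91-fold higher (6.62 to 12.2), whereas OVOL1 had a ratio of 1.03 (0.873 to 1.22, exact p = 0.706). Compared to UNC0642 alone, the combination had higher SNAI1 (9.54-fold, 7.02 to 13.2), FN1 (4.15-fold, 3.95 to 4.37), OVOL1 (2.06-fold, 1.68 to 2.54) and SNAI2 (1.60-fold, 1.46 to 1.75), and lower CDH3 (ratio 0.528, 0.508 to 0.548). SNAI1 therefore lay higher with the combination than with either inhibitor alone. All 6 genes had already risen with SP2509 over vehicle, and the share of all genes that fell or rose was not taken here. The lower values against SP2509 thus describe single genes only.

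The median gene was shifted upward in the knockdown lines and downward with SP2509. Over all tested genes the medians were 0.13 for shLSD1, 0.18 for shG9a and -0.21 with SP2509. Among genes that had 5 FPKM or more in each of the 2 libraries compared, the median log2 difference was 0.11 for shLSD1 and 0.14 for shG9a, against -0.09 with SP2509, -0.004 with UNC0642 and 0.04 with both. Relative to these shifts SNAI2 fell by 1.62 in the shLSD1 line and by 0.84 in the shG9a line on the log2 scale, and OVOL1 by 0.83 and FN1 by 0.63 in the shG9a line. Centred in this way, 2005 genes were called up and 1793 down in the shLSD1 line, compared to 2945 and 1348 without centring. The same numbers for the shG9a line were 2682 and 2592, compared to 3922 and 2065. With SP2509 they were 2837 and 4402, compared to 2433 and 5004. The calls of the EMT genes were the same in all 5 comparisons.

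The other mesenchymal adhesion, cytoskeleton and matrix genes give the surroundings of FN1 and VIM. Of 54 such genes, 33 could be tested with SP2509, of which 25 rose and 2 fell (median log2 difference 0.90), that is 75.8% and 6.06%, against 18.2% and 37.5% of all tested genes. With UNC0642 18 rose and 3 fell of 32 (median 0.47), or 56.3% and 9.38% against 15.8% and 14.0%. With both inhibitors 20 rose and 5 fell of 33 (0.64), or 60.6% and 15.2% against 29.0% and 29.1%. In the shLSD1 line 6 rose and 14 fell of 28 (-0.32), or 21.4% and 50% against 22.7% and 10.4%, and in the shG9a line 6 rose and 16 fell of 29 (-0.72), or 20.7% and 55.2% against 30.0% and 15.8%. Set beside all-gene medians of -0.21, -0.01, -0.02, 0.13 and 0.18, the list lay higher in the 3 inhibitor comparisons and lower in both Dox comparisons. Of the increases, 5, 3, 4, 1 and 1 were of genes that passed the filter through the treated library alone. With 1 FPKM required in both libraries, 20 rose and 2 fell of 28 with SP2509, 15 and 3 of 28 with UNC0642, 16 and 4 of 27 with both, 5 and 13 of 26 in the shLSD1 line, and 5 and 15 of 27 in the shG9a line.

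THBS1, the matrix protein thrombospondin-1, rose from 16.3 to 177 FPKM with SP2509. ITGA5, the alpha chain of the fibronectin receptor, rose from 3.66 FPKM to 24.8 with SP2509, 25.5 with UNC0642 and 64.0 with both, and fell on Dox from 29.2 to 4.65 FPKM (shLSD1) and from 23.7 to 3.79 FPKM (shG9a). The collagen crosslinking enzyme LOX rose from 12.0 FPKM to 28.1, 26.3 and 17.05 with SP2509, UNC0642 and both, and fell on Dox from 46.0 to 7.91 FPKM (shLSD1) and from 41.2 to 3.09 FPKM (shG9a). WNT5A, a noncanonical Wnt ligand, fell in all 5 comparisons and stood at 29.3 FPKM in the vehicle library, 1.44 after SP2509, 14.1 after UNC0642 and 2.76 after both inhibitors. The list was not uniform. COL5A2, a fibrillar collagen, rose from 17.8 to 43.8 FPKM with SP2509, fell to 8.30 with UNC0642 and to 3.47 with both, and rose from 17.3 to 34.0 FPKM upon shG9a induction. NT5E (CD73, an ectonucleotidase) rose in 4 of 5 comparisons and fell with SP2509, from 3.54 to 2.33 FPKM. S100A4 (a calcium-binding protein) also rose in 4 of 5, and N-cadherin (CDH2) rose from 0.694 to 1.44 FPKM upon shLSD1 induction and was not called in the other 4 comparisons. SPARC, a matrix glycoprotein, rose from 153.9 to 288.6 FPKM with SP2509 and on Dox from 152.8 to 250.3 FPKM (shLSD1) and from 143 to 218 FPKM (shG9a). TAGLN, an actin-binding protein of smooth muscle, rose from 0.375 FPKM to 2.82 with SP2509 and 1.71 with both, and from 0.756 to 2.45 FPKM in the shG9a line.

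**Figure D4:**
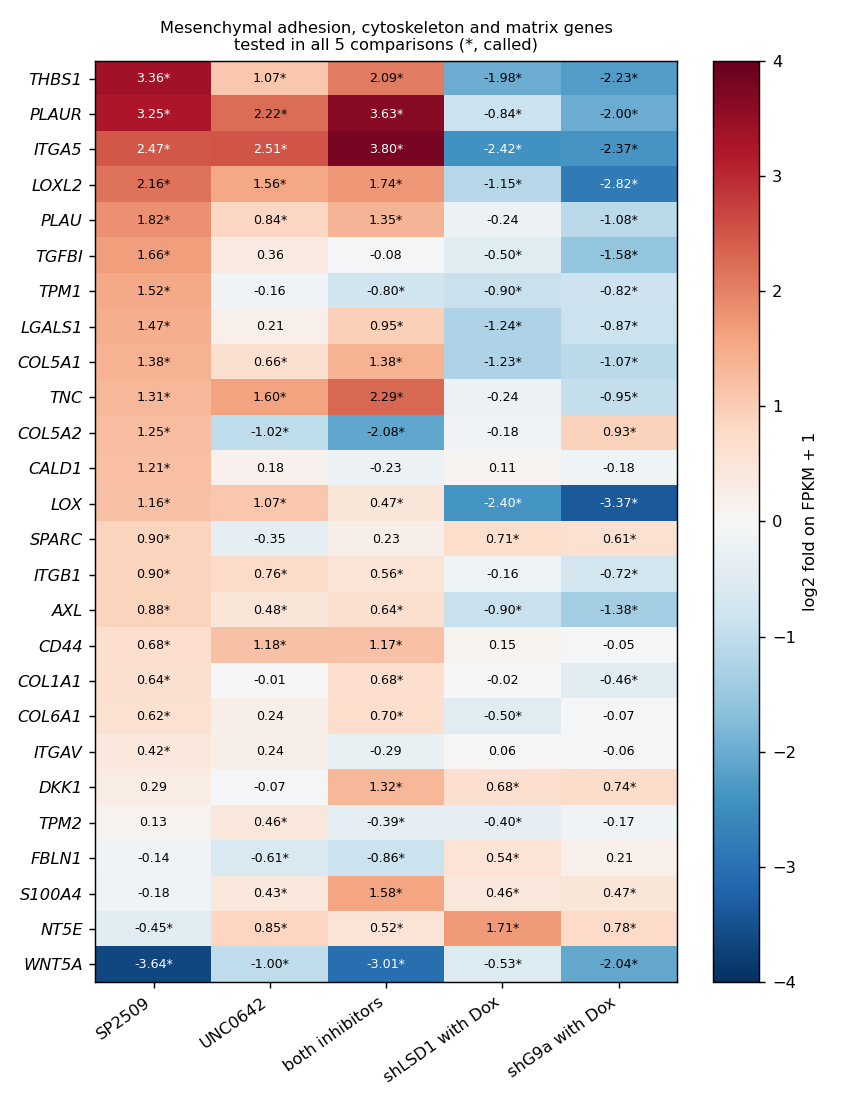
Log2 difference on the (FPKM + 1) scale of 26 mesenchymal adhesion, cytoskeleton and matrix genes tested in all 5 comparisons, ordered by their value with SP2509, with an asterisk for called genes and colours limited to 4 in either direction. THBS1 is called up in the 3 inhibitor libraries and down in both Dox libraries, and WNT5A is called down in all 5.

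TGF-beta signalling is the best known inducer of SNAI1 and of fibronectin. Of 25 TGF-beta ligands, receptors, SMADs and feedback genes, 11 rose and 5 fell of 22 tested with SP2509, against 18.2% and 37.5% of all genes. With UNC0642 7 rose and 2 fell (15.8% and 14.0% of all genes), and with both 10 rose and 3 fell (29.0% and 29.1%). In the knockdown lines 1 rose and 5 fell in the shLSD1 line (22.7% and 10.4%), and 6 rose and 8 fell in the shG9a line (30.0% and 15.8%), of 21 tested. The TGF-beta share that rose in the shG9a line, 28.6%, was about that of all genes. In the order SP2509, UNC0642, both inhibitors, shLSD1 and shG9a, the medians of these TGF-beta genes were 0.38, 0.10, 0.13, 0.12 and -0.03. In that order 1, 1, 1, 0 and 2 increases passed the filter through the treated library alone. So did 2, 0, 1, 0 and 0 decreases through the control library. With 1 FPKM required in both libraries, 10 rose and 3 fell of 19 with SP2509, and 6 and 2 of 21 with UNC0642. It was 9 and 2 of 20 with both, 1 and 5 of 20 in the shLSD1 line, and 4 and 8 of 19 in the shG9a line. The medians were then 0.42, 0.08, 0.13, 0.11 and -0.13. The activin subunit gene INHBA had 0.154 FPKM with vehicle and 13.1, 3.84 and 11.4 FPKM with SP2509, UNC0642 and both. The ligand TGFB1 had 6.61 FPKM with vehicle and rose to 11.02 with SP2509, 18.0 with UNC0642 and 34.8 with both, and it fell from 15.7 to 3.60 FPKM upon shG9a induction. TGFB2 stood at 5.79 FPKM in the vehicle library, 30.3 after SP2509, 3.45 after UNC0642 and 2.10 after both inhibitors, so the single inhibitors moved it in opposite directions. SMAD6, an inhibitory SMAD, fell from 4.49 to 2.31 FPKM with SP2509 and to 0.720 with both, and rose on Dox from 4.06 to 6.22 FPKM (shLSD1) and from 3.82 to 9.32 FPKM (shG9a). SMAD3, which carries the signal to the nucleus, rose from 13.4 FPKM to 26.9, 21.5 and 25.3 with SP2509, UNC0642 and both, and fell on Dox from 21.5 to 14.4 FPKM (shLSD1) and from 19.5 to 6.37 FPKM (shG9a). The feedback gene PMEPA1 followed the same directions, from 6.82 FPKM to 30.3, 17.6 and 22.8 with the inhibitors, and on Dox from 11.7 to 5.50 FPKM (shLSD1) and from 10.8 to 4.36 FPKM (shG9a). SMAD7, another feedback gene, rose from 2.54 to 3.69 FPKM with UNC0642 and to 3.83 with both, fell upon shLSD1 induction from 3.48 to 2.01 FPKM, and was not called in the other 2 comparisons.

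The other transcription factors linked to EMT moved both ways. Of 9 tested among 19, 3 rose and 3 fell with SP2509, where the share that fell, 33.3%, was near the 37.5% of all genes, and 4 rose and 3 fell with UNC0642 (15.8% and 14.0% of all genes). Of 10 tested in each of the other comparisons, 5 rose and 1 fell with both inhibitors (29.0% and 29.1%), 3 rose and 4 fell in the shLSD1 line (22.7% and 10.4%), and 1 rose and 4 fell in the shG9a line (30.0% and 15.8%). Their medians in the same order were 0.04, 0.32, 0.36, -0.27 and -0.28. With both inhibitors 1 increase passed the filter through the treated library alone. In the shLSD1 and shG9a lines 1 and 2 decreases passed it through the uninduced library alone and could only fall. With 1 FPKM required in both libraries, 4 rose and 1 fell of 9 with both inhibitors, and 3 and 3 of 9 in the shLSD1 line. In the shG9a line 1 rose and 2 fell of 8, and these 3 medians were then 0.33, -0.20 and -0.05. SOX9, a progenitor-associated factor, stood at 2.16 FPKM in the vehicle library, 18.3 after SP2509, 12.0 after UNC0642 and 31.9 after both inhibitors, and fell on Dox from 14.8 to 0.668 FPKM (shLSD1) and from 10.3 to 0.264 FPKM (shG9a). SOX9 thus rose in all 3 inhibitor comparisons and fell in both knockdown lines. ETS1 rose from 5.11 FPKM to 14.7, 7.38 and 15.3 with SP2509, UNC0642 and both, and fell on Dox from 2.92 to 1.97 FPKM (shLSD1) and from 2.77 to 1.60 FPKM (shG9a). HMGA2, an architectural chromatin protein, rose from 3.12 to 9.73 FPKM with UNC0642 and upon shLSD1 induction from 1.79 to 4.07 FPKM. SOX4 rose in 4 of 5 comparisons and FOXQ1, a forkhead factor, fell in 4 of 5, from 19.9 to 4.35 FPKM with SP2509.

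Epithelial genes did not follow CDH1 as 1 group. Of 26 junction and polarity genes tested with the inhibitors, 13 rose and 4 fell with SP2509 (18.2% and 37.5% of all genes), 7 rose and 2 fell with UNC0642 (15.8% and 14.0%), and 11 rose and 3 fell with both (29.0% and 29.1%). Of 25 tested in the knockdown lines, 7 rose and 2 fell in the shLSD1 line, where these shares of 28.0% and 8% lay near the 22.7% and 10.4% of all genes, and 3 rose and 8 fell in the shG9a line (30.0% and 15.8%). The medians of the junction genes were 0.34, 0.04, 0.30, 0.03 and -0.02. With SP2509 1 junction decrease passed the filter through the vehicle library alone. The tight junction protein CLDN1 rose from 18.7 to 82.7 FPKM with SP2509 and to 30.3 with both, and on Dox it rose from 14.4 to 20.2 FPKM (shLSD1) and fell from 15.6 to 9.71 FPKM (shG9a). CLDN4, another claudin, rose in 4 of 5 comparisons and had 16.4 FPKM with vehicle and 131 with both inhibitors, whereas CLDN7 fell in 4 of 5. The scaffold TJP3 fell from 17.5 to 10.7, 8.95 and 3.19 FPKM with SP2509, UNC0642 and both, fell from 48.7 to 31.3 FPKM upon shG9a induction, and rose from 49.1 to 79.0 FPKM upon shLSD1 induction. Of the 4 simple-type keratins, 1 rose with SP2509 (KRT7, from 183.4 to 320.5 FPKM), against 18.2% of all genes. With UNC0642 0 were called (15.8% and 14.0% of all genes), and with both inhibitors 1 fell (KRT7, to 106 FPKM), against 29.1%. In the shLSD1 line 1 fell (KRT19, from 25.2 to 16.7 FPKM), against 10.4%, and in the shG9a line 3 fell, against 15.8%. The shares of 25% with SP2509 and with both inhibitors lay near those of all genes. The keratin medians were 0.26, -0.13, 0.04, -0.04 and -0.49.

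Of the 15 epithelial transcription and splicing regulators, 13 or 14 could be tested. Of these, 3 rose and 5 fell with SP2509, shares of 23.1% and 38.5% that lay near the 18.2% and 37.5% of all genes. The counts were 2 up and 4 down with UNC0642 (15.8% and 14.0% of all genes), 4 and 6 with both (29.0% and 29.1%), 6 and 2 in the shLSD1 line (22.7% and 10.4%), and 3 and 5 in the shG9a line (30.0% and 15.8%). The medians of these regulators were -0.06, -0.27, -0.26, -0.03 and -0.34. With UNC0642 1 increase, and with both inhibitors 1 increase and 1 decrease, passed the filter through 1 library alone. With 1 FPKM required in both libraries, 1 rose and 4 fell of 13 with UNC0642, and 3 and 5 of 12 with both. OVOL2, the paralog of OVOL1, had 5.14 FPKM with vehicle and fell to 2.12 with SP2509, 1.93 with UNC0642 and 0.981 with both, and it rose on Dox from 3.42 to 11.2 FPKM (shLSD1) and from 3.95 to 5.60 FPKM (shG9a). OVOL1 and OVOL2 therefore went opposite ways with SP2509. GRHL2, a repressor of ZEB1, fell from 19.2 FPKM to 7.31 with SP2509, 10.9 with UNC0642 and 4.26 with both, and rose on Dox from 10.6 to 14.2 FPKM (shLSD1) and from 10.6 to 16.1 FPKM (shG9a). TP63, the master factor of squamous cells, rose from 79.1 to 127 FPKM with SP2509 and fell to 18.3 with both inhibitors. KLF4 rose from 4.82 to 10.9 FPKM with SP2509 and to 29.0 with both and fell from 9.27 to 2.18 FPKM upon shG9a induction. ESRP1, the epithelial splicing factor, fell in 4 of 5 comparisons.

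**Figure D5:**
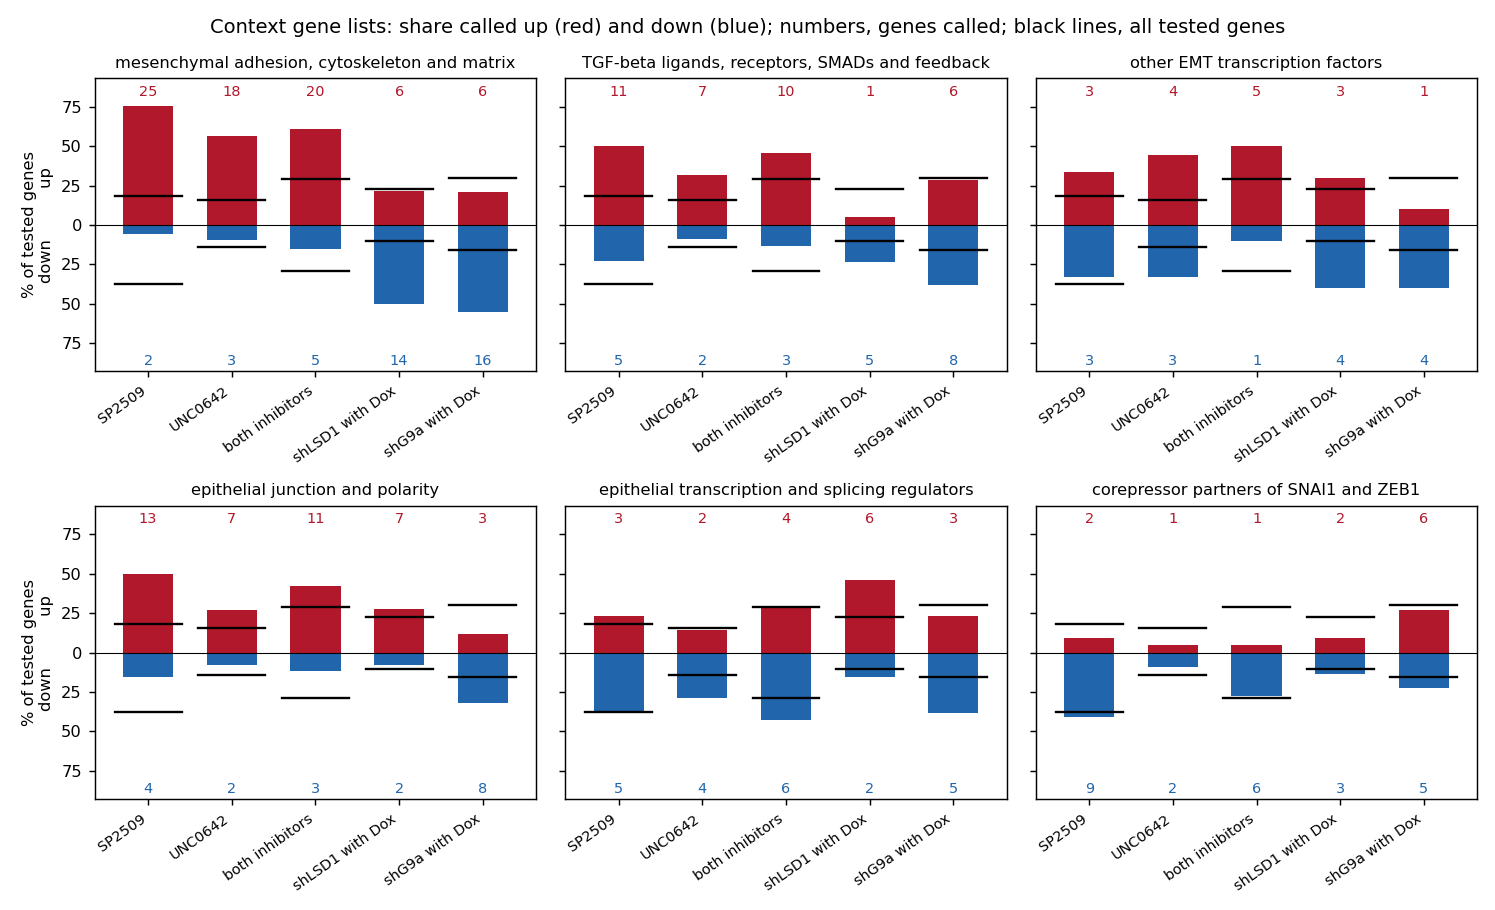
Share of tested genes called up (red, above 0) and down (blue, below 0) in 6 gene lists and 5 comparisons, with the number of genes called at the top and bottom and black lines at the share over all tested genes. The mesenchymal list has 25, 18 and 20 genes up in the inhibitor libraries and 14 and 16 genes down in the Dox libraries.

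The miR-200 and miR-205 genes, whose miRNAs repress ZEB1 and ZEB2, are shown because MIR205HG, which hosts miR-205, had a large decrease with SP2509. The mature sequences printed here, from RefSeq (GRCh38.p14), fall into 3 seed groups. Mature sequences from the other strand, such as miR-205-3p, have other seeds and are not printed. The capitals mark the seed (bases 2 to 8) that pairs with a target.
hsa-miR-200b-3p: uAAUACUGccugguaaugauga
hsa-miR-429: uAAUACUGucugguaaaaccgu
hsa-miR-200c-3p: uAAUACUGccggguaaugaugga
hsa-miR-200a-3p: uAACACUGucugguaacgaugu
hsa-miR-141-3p: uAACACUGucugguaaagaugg
hsa-miR-205-5p: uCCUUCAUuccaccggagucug
The first 3 share 1 seed and the next 2 another, while miR-205-5p has a seed of its own. These RNA-seq libraries count fragments on the genes and not the mature miRNAs.

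MIR205HG, the host gene of miR-205, had 51.1 FPKM (2817 reads) in the vehicle library, 3.53 FPKM (221 reads) after SP2509, 29.4 FPKM (1850 reads) after UNC0642 and 2.81 FPKM (167 reads) after both inhibitors. The 2 libraries with SP2509 were the lowest. MIR205 itself, which lies within its host gene so that the reads cannot be told apart, had 26 reads with vehicle, 0 with SP2509 (exact p = 2.67e-09), 17 with UNC0642 and 1 with both. In the knockdown lines MIR205HG had 22.2 and 27.3 FPKM (shLSD1) and 25.3 and 28.5 FPKM (shG9a) without and with Dox, and neither was called. MIR200CHG, the host of miR-200c and miR-141, had 23 reads with vehicle and fell to 7 with SP2509, 12 with UNC0642 and 4 with both, and rose from 16 to 36 reads in the shG9a line. MIR429 had 12 reads with vehicle and 0, 3 and 3 reads in the treated libraries, all called as decreases. In all, of the 7 miR-200 and miR-205 genes tested with the inhibitors, 5, 4 and 4 were called down with SP2509, UNC0642 and both and 0 up, against 37.5%, 14.0% and 29.1% of all genes called down. Of these decreases 3, 1 and 2 were of genes that passed the filter through the vehicle library alone and could only fall, and MIR205 and MIR205HG are 1 locus, so the counts describe few independent genes. With 1 FPKM required in both libraries, 2 of 2, 3 of 5 and 2 of 3 were called down, against 34.4%, 12.9% and 28.6% of all genes. In the shLSD1 line 1 rose (MIR429) and 1 fell (MIR200A) of 7, against 22.7% and 10.4% of all genes. In the shG9a line 2 rose (MIR200B and MIR200CHG) and 0 fell of 6, against 30.0% and 15.8%. The 33.3% that rose there was near the share of all genes. Medians over the miRNA and host genes were -1.93, -0.83, -1.70, 0.02 and 0.69. The single miRNA genes rest on 26 reads or fewer in each library.

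Of the 22 genes that encode corepressor partners of SNAI1 and ZEB1, 2 rose and 9 fell with SP2509 (18.2% and 37.5% of all genes), 1 rose and 2 fell with UNC0642 (15.8% and 14.0%), 1 rose and 6 fell with both (29.0% and 29.1%), 2 rose and 3 fell in the shLSD1 line (22.7% and 10.4%), and 6 rose and 5 fell in the shG9a line (30.0% and 15.8%). The shares that fell with SP2509 and with both, 40.9% and 27.3%, were thus near those of all genes. KDM1A and EHMT2 themselves are in this list, whose medians were -0.16, -0.05, -0.14, 0.07 and 0.22. LOXL2, a lysyl oxidase that binds SNAI1, rose from 19.3 FPKM to 90.2, 58.9 and 66.9 with SP2509, UNC0642 and both, and fell on Dox from 69.1 to 30.6 FPKM (shLSD1) and from 53.4 to 6.70 FPKM (shG9a). The deacetylase genes HDAC1 and HDAC2 fell with SP2509, from 57.7 to 28.4 and from 17.2 to 8.65 FPKM, and HDAC1 rose upon shG9a induction from 50.9 to 68.6 FPKM. EHMT2 fell from 11.1 to 5.38 FPKM with both inhibitors. RCOR2, a CoREST protein that binds LSD1, fell in both knockdown lines, from 9.40 to 3.15 and from 8.74 to 2.45 FPKM. CTBP2, a corepressor recruited by ZEB1, fell in 4 of 5 comparisons.

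Of 13 tested genes for the stability of the SNAI1 and TWIST1 proteins, 3 rose and 6 fell with SP2509 (18.2% and 37.5% of all genes), 2 rose and 2 fell with UNC0642 (15.8% and 14.0%), 2 rose and 4 fell with both (29.0% and 29.1%), 3 rose and 1 fell in the shLSD1 line (22.7% and 10.4%), and 1 rose and 2 fell in the shG9a line (30.0% and 15.8%). Most of these shares lay near those of all genes, such as 15.4% up with UNC0642 and 30.8% down with both. Medians of this list were -0.16, -0.004, 0.16, -0.16 and 0.04. The tested genes include PKD1, the symbol of polycystin-1 and an alias of the kinase PRKD1, which was listed too but not tested. PKD1 fell from 6.58 to 3.80 FPKM with SP2509, so the 6 decreases there include a gene listed through that shared name. FBXL14, an F-box protein that targets SNAI1 for degradation, fell from 7.45 to 2.48 FPKM with SP2509 and to 4.71 with both, and from 10.7 to 6.31 FPKM in the shG9a line. GSK3B, the kinase that marks SNAI1 for degradation, fell from 18.8 to 10.7 FPKM with SP2509 and on shLSD1 induction rose from 9.61 to 15.01 FPKM. LATS2, a Hippo pathway kinase, rose from 2.79 to 6.59 FPKM with SP2509 and to 8.94 with both, and on shLSD1 induction fell from 3.11 to 1.73 FPKM. Of the 17 other classical cadherins, 2 or 3 reached 1 FPKM, too few for their shares to be read as a result. CDH24 rose with SP2509 and with UNC0642 (18.2% and 15.8% of all genes rose), and CDH24 and CDH5 with both inhibitors (29.0%). In the shLSD1 line CDH2 and CDH5 rose (22.7%), and 0 were called in the shG9a line (30.0%). CDH2 passed the filter there through the Dox library alone, where it could only count as an increase.

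The genes whose profile over the 8 libraries was most like that of each EMT gene were taken from 6036 genes, by the Pearson correlation of log2(FPKM + 1) centred within each table. CDH1 was closest to JUP (r = 0.985), which encodes the junction protein plakoglobin and rose from 148 to 253 FPKM with SP2509. CDH3 was closest to ATP8B1 (0.983) and TBC1D2, FN1 to TPRA1 (0.997) and GSN (0.990), and SNAI1 to TVP23B (0.993), SDCBP and CERS2. SNAI2 was closest to DAPK3 (0.984) and ELL2, and OVOL1 to UBALD1 (0.987) and LINC00958. With 8 points that share libraries and of which 1 or 2 are far from the rest, these values describe the profiles only.

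The antisense genes VIM-AS1, ZEB1-AS1, ZEB2-AS1, OVOL1-AS1, AC099314.1 (at CDH1) and AC126773.2 (at CDH3) stayed below 1 FPKM in every library in which they were measured. Some still exceeded the gene they overlap. VIM-AS1 had 0.654 FPKM with both inhibitors, above VIM at 0.0804, but 0.113 FPKM with SP2509, below VIM at 0.174. ZEB1-AS1 had 0.583 FPKM with vehicle and 0.201 with both inhibitors, above ZEB1 at 0 and 0.171. ZEB2-AS1 did not exceed 0.0184 FPKM where it was measured. The sources used here do not say if strand was used in counting, so reads of VIM, ZEB1 and ZEB2 cannot be told apart from those of their antisense genes.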

How the data were processed

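Total RNA of Kyse510 cells was sequenced by the authors as paired-end reads in 8 libraries, 1 per condition, and mapped to the human genome (GRCh38 per the labels' processing notes). The authors deposited FPKM values in 2 tables with gene annotation, and the 2 tables may have been normalized separately. The aligner, the counting tool and strandedness are not given in the sources used here. Columns were assigned to conditions by the sample labels. Whole reads were estimated from the FPKM steps and covered 99.6% to 99.8% of the library totals. They were found for all but 1 gene in each table. Where several gene lengths gave whole reads, a reference length up to 4 times the smallest one was taken.

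Calls used a fold of at least 1.3 with a pseudocount of 1 FPKM, at least 1 FPKM in 1 library and a two-sided exact binomial p below 0.05 on the reads given the library totals. The binomial p was computed for all genes of a table, only genes that passed the FPKM filter count as tested, and p was not adjusted. The threshold on p and fold follows the study's methods. Intervals are exact 95% Poisson (levels) and Clopper-Pearson (folds) intervals, and a level of 0 was bounded at 3 reads. Python 3.11.15, NumPy 2.4.6, SciPy 1.17.1 and pandas 2.3.3 were used, and the procedure was tested on simulated data.

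The EMT genes and the gene lists were chosen with earlier results of these data known. All 10 EMT genes are named, and the text also names KDM1A and EHMT2, genes of a list called among its 2 largest increases or decreases in a comparison or in the same direction in 4 of 5 comparisons, and the 3 genes most like each EMT gene in profile, in part. JUP, MIR205 and MIR200CHG levels, the comparison of the combination with each inhibitor, the counts of an annotation term and the filter of 1 FPKM in both libraries were added after values were seen. miRNA sequences were from RefSeq, and a planned description of protein tails and E-boxes was not used here. Some genes that this rule picks are not reported here, although they stay in the counts of their lists.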

Additional observations from a re-analysis of the deposited data

Results flagged for a closer look

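In 3 cases an EMT gene was called in opposite directions with an inhibitor and in the knockdown of the same enzyme. They were SNAI2 for both enzymes and FN1 for G9a. SNAI2 had a log2 difference of 2.31 with SP2509 and of -1.51 in the shLSD1 line with Dox. It had a log2 difference of 0.62 with UNC0642 and of -0.70 in the shG9a line. For FN1 the values were 0.71 with UNC0642 and -0.48 in the shG9a line. Each group is 1 library, so these differences were not tested.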

How the results depend on the processing

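With 1 library per condition, no library could be left out, and no paired analysis was possible because each condition has 1 library. At a fold of at least 2, the EMT genes called with SP2509 went from 6 to 3 up, with UNC0642 from 3 to 0 up, with both inhibitors from 1 to 0 down, and in the shG9a line from 3 to 0 down. Every other count of called EMT genes stayed within 1.5 times its value under that fold, a pseudocount of 0.1 FPKM, centring, no filter, a minimum of 5 FPKM, the fold alone, adjusted p, the smallest gene length and, for the knockdowns, the mean of both uninduced lines as control. An added alternative, 1 FPKM in both libraries, was chosen after seeing the data and likewise moved no count of EMT genes by more than 1.5 times. Under the pseudocount, centring and control alternatives, each EMT gene kept its call, and the log2 difference of each EMT gene that passed the filter kept its direction. Below the filter this did not hold. VIM in the shG9a line, with 0 reads without and 1 with Dox, went from 0.02 to -0.13 when centred. The log2 difference of SNAI1 in the shLSD1 line passed the fold threshold at a pseudocount of 0.1 FPKM (0.52, from 0.29) but was not called, since the reads did not pass the test. Over all genes, a fold of at least 2 left 923 up and 1608 down with SP2509, 511 and 294 with UNC0642, 1662 and 1181 with both, 346 and 326 in the shLSD1 line and 548 and 693 in the shG9a line. A minimum of 5 FPKM left 1595 and 2806, 1251 and 1073, 2534 and 2415, 1821 and 866, and 2425 and 1364 in the same order, since fewer genes were tested. Depth limits SNAI1 in the knockdown lines, VIM, ZEB1, ZEB2 and the miRNA genes, which rest on few reads.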

Other observations

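The genes that the annotation deposited with the values assigns to epithelial to mesenchymal transition, among them SNAI1 and SNAI2, were called in both directions. Of 23 tested with SP2509, 8 rose and 9 fell, or 34.8% and 39.1%, against 18.2% and 37.5% of all tested genes. Of 24 tested with UNC0642, 9 rose and 5 fell (15.8% and 14.0% of all genes). With both inhibitors 10 rose and 7 fell of 24, and the 29.2% that fell was about the 29.1% of all genes (29.0% rose). In the shLSD1 line 7 rose and 9 fell of 28 (22.7% and 10.4%), and in the shG9a line 12 rose and 9 fell of 29 (30.0% and 15.8%). Some of these calls were of genes that passed the filter through 1 library alone, which fixed their direction. They were SNAI1 (up), TGFBR3 and AL109918.1 (down) with SP2509, SNAI1 (up) with UNC0642, and SNAI1 and RFLNB (up) with both inhibitors. In the knockdown lines they were SOX9 (down) in both, and LOXL3, AL109918.1 and TGFBR3 (up) in the shG9a line. Counts of the term with 1 FPKM required in both libraries were not taken. The counts above were added after the values of the EMT genes had been seen.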
